A study of Rattus norvegicus with 23 samples.

Results

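The constitutive proteasome subunits were followed in the livers of rats given 1 of 4 hepatotoxicants. The genes were those whose symbol begins with Psma, Psmb, Psmc or Psmd and ends in a number, without the immunoproteasome genes Psmb8, Psmb9 and Psmb10, and only probe sets annotated to a single gene were used. This gave 33 of the 14217 genes measured on the array, with 44 probe sets between them. Where a gene had several probe sets, the brightest on average over all 23 samples stood for it, so levels are compared between groups for a gene and never between genes. The catalytic subunit Psmb6 was not analysed here because its probe set was also annotated to Psmb6l1, and a second Psma3 probe set, also annotated to Psma3l, was left out for the same reason.

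RNA came from the left lateral liver lobe of male Sprague Dawley rats dosed by oral gavage for 5 days in 3 in-life studies. Alpha-naphthylisothiocyanate (ANIT), a bile duct toxicant, was given at 100 mg/kg and set against corn oil at 5 ml/kg. Methylenedianiline (MDA), another bile duct toxicant, was given at 100 mg/kg and set against 35% ethanol at 2 ml/kg. Acetaminophen (APAP), which is toxic to hepatocytes at high dose, was given at 1000 mg/kg and set against corn oil at 2 ml/kg, and the anti-inflammatory drug diclofenac (DCLF) at 10 mg/kg against water at 10 ml/kg, both in a single study with separate vehicle animals. The paper reports histological findings in the liver with ANIT and MDA, and none with APAP or DCLF at these doses. There were 3 rats per group and 2 in the water group. In the labels of the 5 ml/kg corn oil group, the number at the start of the title differs between the 3 samples and that at the end repeats; the first was read as the animal.

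The proteasome degrades proteins that carry ubiquitin chains. Its core particle is a barrel of alpha rings, which gate the entrance, around beta rings, which hold the proteolytic sites. A regulatory particle caps the barrel: ATPases of its base unfold the substrate, non-ATPase subunits of the base bind ubiquitin and shuttle proteins, and the lid removes the ubiquitin chain. When protein breakdown falls short, the transcription factor NRF1, encoded by Nfe2l1, raises the subunit genes together, and interferon signalling replaces the catalytic beta subunits with those of the immunoproteasome. Liver relies on the complex to clear damaged proteins and to turn over short-lived metabolic enzymes. The 33 genes held 7 of the alpha ring, 4 non-catalytic and 2 catalytic subunits of the beta ring, 6 ATPases and 3 non-ATPases of the base, 8 of the lid and 3 chaperones of base assembly.

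All 33 genes were measured well within the range of the array. The median over the 33 genes lay between 11.52 and 12.10 log2 units in the 23 samples, against 9.70 to 9.86 for all 14217 genes. Hepatocyte markers were bright in all groups, but 3 libraries stood apart in them. Alb, the gene of serum albumin, read 14.58 and 14.97 in ANIT replicates 1 and 2 and 14.57 in corn oil 5 ml/kg replicate 2, against 15.86 to 15.99 in the other 20 libraries. The summed level of the 9 hepatocyte markers was likewise 17.45 and 17.56 in those ANIT libraries and 17.49 in that corn oil library, while the other 20 lay between 18.10 and 18.51. Within these 20, the MDA libraries lay at 18.10 to 18.25, below the ethanol libraries at 18.42 to 18.48. The Alb values of the other 20 libraries lie at the top of the scale of the file, whose highest value is 15.99, and whether the scaling or saturation of these arrays differed could not be tested from the deposited values. For ANIT, the count of called constitutive genes and their median change are therefore also given without each of the 3 libraries with low albumin. The 3 were not left out together, and other ANIT results rest on all libraries unless stated. In such whole-tissue samples, fewer cells of a type and less RNA per cell cannot be told apart.

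**Figure D1:**
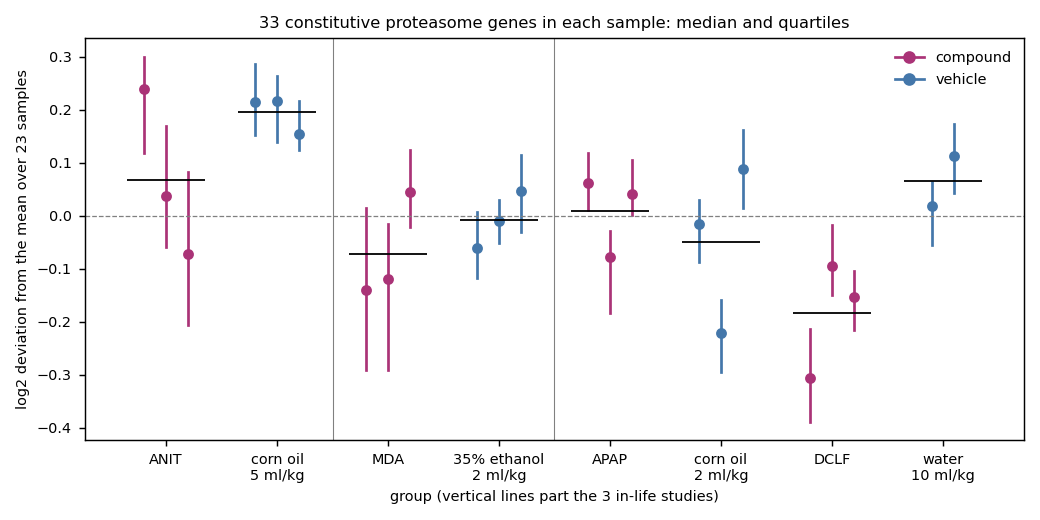
Median and quartiles, over the 33 constitutive proteasome genes, of each gene's log2 value minus that gene's mean over the 23 samples. Each point is a sample, each bar runs between the quartiles over genes, and black lines are group means. DCLF samples lie between -0.305 and -0.094, below the water samples at 0.019 and 0.112, while ANIT samples spread from -0.073 to 0.24.

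Sample by sample, the subunits as a set differed by small amounts, and in most samples genes lay on both sides of their own means. Of the 33 genes, 33 lay above their own mean over all samples in corn oil 5 ml/kg replicate 2, 15 in ethanol replicate 2 and 1 in DCLF replicate 3. For each sample the deviation of each gene from its own mean over all samples was taken, and the median over the 33 genes described the sample. This median was 0.24, 0.037 and -0.073 in ANIT livers, against 0.214, 0.217 and 0.155 in their corn oil livers. ANIT replicate 1 was thus level with its vehicle samples, and the other ANIT samples lay below them. In MDA livers it was -0.14, -0.12 and 0.044, against -0.061, -0.01 and 0.046 in ethanol livers, and the groups overlapped. In APAP livers it was 0.061, -0.078 and 0.042, against -0.016, -0.221 and 0.088 in their corn oil livers, where replicate 2 stood lowest. In DCLF livers it was -0.305, -0.094 and -0.153, against 0.019 and 0.112 in water livers, with no overlap between the groups. The subunits lie in the upper part of the scale of the array, and that part also varied between libraries. The 90th percentile of all probe sets was 11.563, 11.522 and 11.395 in ANIT libraries and 11.561, 11.581 and 11.613 in their corn oil libraries. It was 11.443, 11.551 and 11.485 in DCLF libraries and 11.584 and 11.608 in water libraries, so for these compounds it was lower on average, as were the subunits. It was also lower in MDA libraries, at 11.426, 11.404 and 11.462, against 11.515, 11.601 and 11.574 in ethanol libraries, where the subunits overlapped. In APAP libraries it was 11.53, 11.462 and 11.609, against 11.567, 11.507 and 11.57 in their corn oil libraries. Its part in the subunit levels was not tested.

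No constitutive subunit passed the test in any of the 4 comparisons. The test was limma with Benjamini-Hochberg adjustment over all 31042 probe sets, and a gene was called at an adjusted p under 0.05 with a fold change over 1.5. Of the 33 genes 0 were called for ANIT, where 7.22% of all genes were called, and 0 for MDA, where 9.13% were called. The count was also 0 for APAP and DCLF, where 0.324% and 0% of all genes were called. The t-test of the study's methods also called 0 of the 33 genes in each comparison. At an unadjusted p under 0.05 with any fold change, 8 of the 33 genes passed for ANIT (28% of all genes), 7 for MDA (31.8%), 1 for APAP (11.6%) and 11 for DCLF (11.8%). The whole 95% interval of the change stayed within 1.5-fold in either direction for 28 of the 33 genes with ANIT, 30 with MDA, 33 with APAP and 28 with DCLF.

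**Figure D2:**
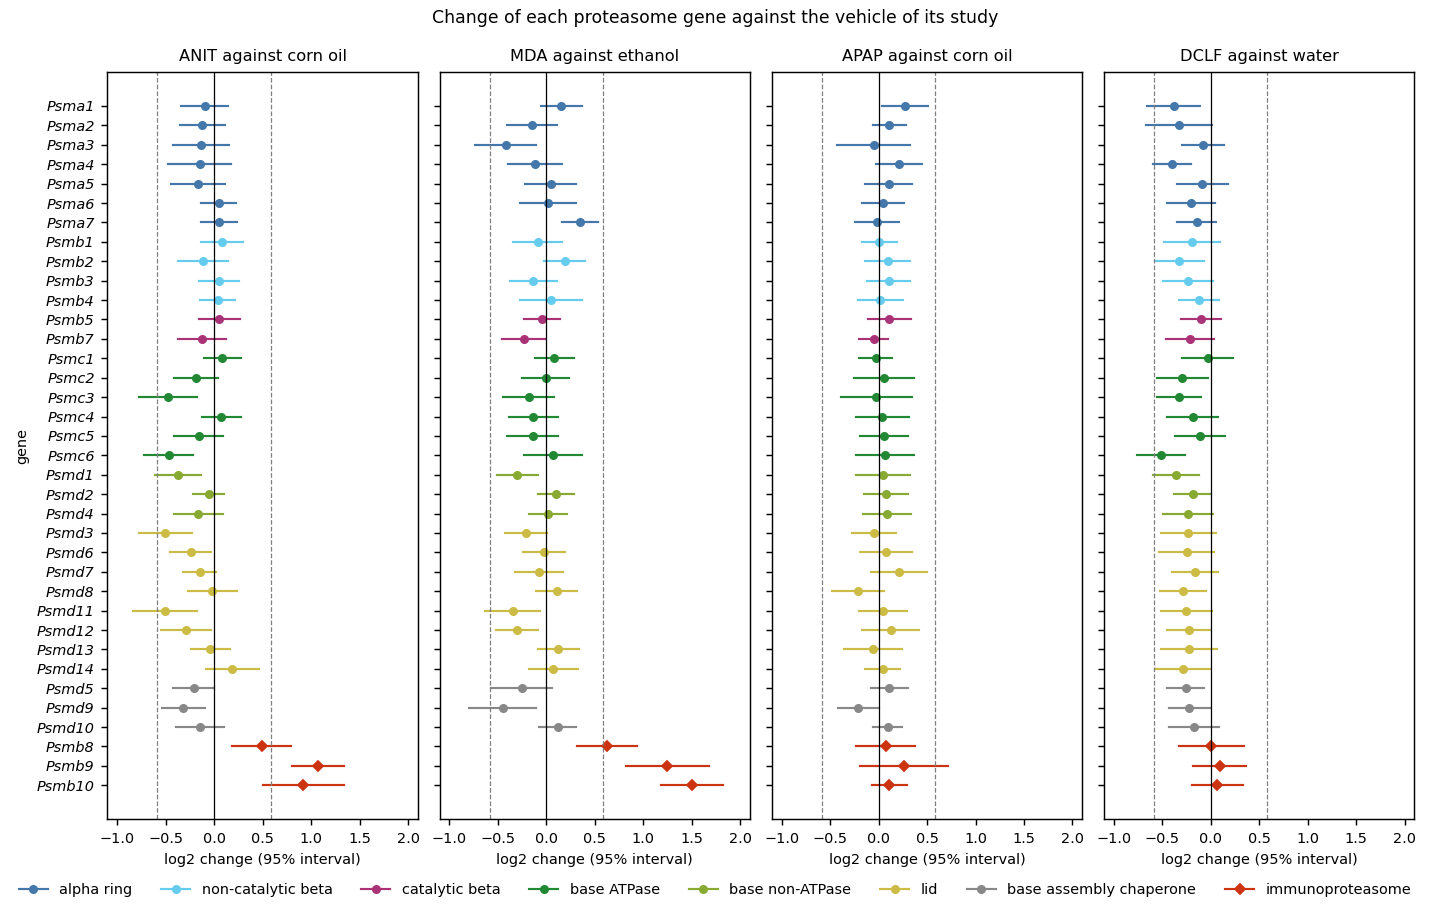
Log2 change of each proteasome gene for each compound against its vehicle, with the 95% interval from limma and dashed lines at 1.5-fold (0.585 on the log2 scale). Colours give the place of each subunit, and red diamonds are the 3 immunoproteasome genes. The 33 constitutive genes lie between -0.51 and 0.35 in all 4 panels, while Psmb9 and Psmb10 lie at 0.92 to 1.5 with ANIT and MDA.

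For ANIT against corn oil, 24 of the 33 genes had a change below 0 and 9 above, with a median of -0.13 against -0.02 over all genes. The median change was -0.12 over the alpha ring, 0.04 over the non-catalytic beta subunits, -0.17 over the base ATPases and -0.19 over the lid, and the roles were not tested against each other. The changes ran from -0.51 for Psmd11 to 0.19 for Psmd14, the lid enzyme that cuts the ubiquitin chain off. Groups did not overlap, with ANIT lower, for 11 of the 33 genes, where 18.8% of all genes did so.

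With no minimum on the fold change, 2 genes passed at an adjusted p under 0.05, both lower with ANIT, where 12.8% of all genes passed in either direction and 6.75% as lower. Psmc6, an ATPase of the base, read 11.59, 11.40 and 11.24 in ANIT livers, against 11.85, 12.0 and 11.80 in corn oil livers. All 3 ANIT samples lay below all 3 corn oil samples, and the log2 change was -0.47 ± 0.11 (SE, adjusted p = 0.034 by limma). Psmd3, a scaffold subunit of the lid, read 11.83, 11.47 and 11.41 in ANIT livers, against 12.09, 12.08 and 12.06 in corn oil livers. ANIT replicate 1 was closest to the vehicle, the groups did not overlap, and the log2 change was -0.50 ± 0.12 (SE, adjusted p = 0.035 by limma). Both changes amount to less than 1.5-fold.

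The next lowest adjusted p-values were those of Psmc3 and Psmd11. Psmc3, a base ATPase next to the ubiquitin-binding subunits, read 12.0, 11.57 and 11.54 in ANIT livers, against 12.21, 12.11 and 12.23 in corn oil livers, a log2 difference of -0.48 ± 0.13 (SE, adjusted p = 0.058 by limma). Psmd11, a lid subunit that clamps the regulatory particle to the core, read 12.35, 12.0 and 11.77 in ANIT livers, against 12.59, 12.50 and 12.55 in corn oil livers, a difference of -0.51 ± 0.14 (SE, adjusted p = 0.065 by limma). For both genes ANIT replicate 1 lay nearest to the vehicle samples without reaching them. The other Psmd11 probe sets gave -0.23 and 0.01 and the other Psmc6 probe sets -0.43 and -0.68 with ANIT, none called. For Psmd9, the chosen probe set gave -0.32 with ANIT (adjusted p = 0.081 by limma). Its other probe set gave -0.365 (adjusted p = 0.039 by limma), which passed only with no minimum on the fold change. ANIT replicate 1 decided the count of calls. Without it 3 lid and base genes passed, Psmd3 at -0.64 (adjusted p = 0.0067), Psmc3 at -0.63 (adjusted p = 0.0083) and Psmd11 at -0.66 (adjusted p = 0.012), and the median over the 33 genes was -0.23. Without ANIT replicate 2 or corn oil replicate 2, the other libraries with low albumin, 0 genes were called and the median was -0.12 in each case, and without ANIT replicate 3 it was -0.05.

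The catalytic subunits of the core lay close to their vehicle levels in ANIT livers. Psmb5, which carries the chymotrypsin-like site, read 12.68, 12.43 and 12.63 in ANIT livers, against 12.60, 12.47 and 12.52 in corn oil livers. The groups overlapped, and the log2 difference of 0.05 had a 95% interval of -0.16 to 0.26. Psmb7, which carries the trypsin-like site, read 12.43, 12.13 and 12.05 in ANIT livers, against 12.33, 12.33 and 12.32 in corn oil livers, with a difference of -0.12 and an interval of -0.37 to 0.13. Here ANIT replicate 1 lay above and the other ANIT samples below all vehicle samples.

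For MDA against ethanol, the 33 genes were divided, with 14 above and 19 below 0. The median change was -0.04 against 0.00 over all genes, and the range over the chosen probe sets was -0.45 to 0.35. For Psmc6 the chosen probe set gave 0.07 with MDA. Its other probe sets gave -0.23 and -0.64, the latter past 1.5-fold, and none was called. Groups did not overlap for 5 genes with MDA higher and 7 with MDA lower, where 17.1% and 18.4% of all genes did so. Psma7, an alpha ring subunit, was the single gene that passed with no minimum on the fold change, where 16.8% of all genes passed in either direction and 8.29% as higher. It read 12.22, 12.09 and 12.20 in MDA livers, against 11.86, 11.80 and 11.81 in ethanol livers. Every MDA sample lay above every ethanol sample, and the log2 change was 0.35 ± 0.08 (SE, adjusted p = 0.028 by limma), under 1.5-fold.

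The other genes with low adjusted p-values were lower with MDA and did not pass. Psmd1, the large scaffold of the base, read 11.03, 10.91 and 11.14 in MDA livers, against 11.35, 11.27 and 11.36 in ethanol livers, a log2 difference of -0.30 ± 0.09 (SE, adjusted p = 0.070 by limma). Psmd12, a scaffold subunit of the lid, read 10.74, 10.64 and 10.74 in MDA livers, against 10.87, 11.05 and 11.12 in ethanol livers, a difference of -0.31 ± 0.09 (SE, adjusted p = 0.074 by limma). Neither gene had overlapping groups. Psma3, an alpha ring subunit, read 10.11, 9.93 and 10.36 in MDA livers, against 10.37, 10.54 and 10.74 in ethanol livers, a difference of -0.42 ± 0.14 (SE, adjusted p = 0.089 by limma), with MDA replicate 3 next to ethanol replicate 1. Among the base assembly chaperones, Psmd9 had the lowest change of all 33 genes, at -0.45.

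Psmb5 overlapped its vehicle level and Psmb7 lay below it. Psmb5 read 12.27, 12.33 and 12.37 in MDA livers, against 12.34, 12.34 and 12.42 in ethanol livers, a log2 difference of -0.04 with a 95% interval of -0.23 to 0.14. Psmb7 read 11.86, 11.83 and 12.10 in MDA livers, against 12.15, 12.16 and 12.18 in ethanol livers, a difference of -0.23 with an interval of -0.45 to -0.01 (adjusted p = 0.17 by limma). All MDA samples of Psmb7 lay below the ethanol samples, by a margin that did not pass the test. The direction of the median over the 33 genes depended on scaling: after quantile normalization of the deposited values it was 0.10, with 19 genes above 0, against 0.02 over all genes.

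For APAP against corn oil, the changes of the 33 genes were small. They ran from -0.21 to 0.28, with 24 genes above 0, 9 below and a median of 0.05 against 0.02 over all genes. Psma1, an alpha ring subunit, read 12.07, 11.88 and 11.90 in APAP livers, against 11.77, 11.49 and 11.77 in corn oil livers, a log2 difference of 0.28 ± 0.10 (SE, adjusted p = 0.41 by limma). Its groups did not overlap, as was seen for 2 of the 33 genes with APAP higher, against 10.4% of all genes. Psma4, also of the alpha ring, read 12.0, 11.82 and 12.03 in APAP livers, against 11.79, 11.56 and 11.88 in corn oil livers, a difference of 0.21 ± 0.10 (SE, adjusted p = 0.54 by limma).

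A base chaperone and a lid gene lay lower with APAP. Psmd9, the chaperone, read 10.83, 10.56 and 10.84 in APAP livers, against 10.97, 10.92 and 10.96 in corn oil livers, a log2 difference of -0.21 ± 0.09 (SE, adjusted p = 0.49 by limma). It was the single gene of the 33 whose groups did not overlap with APAP lower, against 7.09% of all genes. The other, dimmer Psmd9 probe set gave 0.03 with APAP, so the difference was not seen on both. Psmd8, a lid subunit, read 11.86, 11.59 and 11.68 in APAP livers, against 11.95, 11.71 and 12.10 in corn oil livers, a difference of -0.21 ± 0.12 (SE, adjusted p = 0.58 by limma), and its groups overlapped.

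The catalytic genes overlapped their vehicle or nearly so. Psmb5 read 12.45, 12.34 and 12.45 in APAP livers, against 12.30, 12.15 and 12.47 in corn oil livers, a log2 difference of 0.11 with a 95% interval of -0.11 to 0.33. Psmb7 read 12.11, 12.08 and 12.09 in APAP livers, against 12.13, 12.11 and 12.20 in corn oil livers, a difference of -0.05 with an interval of -0.21 to 0.10. Corn oil replicate 2, with the lowest subunit levels of its group, set the sign of the median: without it the median over the 33 genes was -0.04.

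For DCLF against water, all 33 genes had a change below 0 on the chosen probe set. The median was -0.23 and the range -0.51 to -0.03, against a median of -0.03 over all genes, of which 41.1% lay above 0. All 7 roles had medians below 0, among them -0.20 for the alpha ring, -0.22 for non-catalytic beta subunits, -0.24 for the base ATPases and -0.24 for the lid. Groups did not overlap, with DCLF lower, for 21 of the 33 genes, where 20.8% of all genes did so. None passed the adjusted test, and the lowest adjusted p was 0.28. Of the 11 further probe sets of these genes, 9 had the same sign as the chosen one. For Psmd11, the further probe sets gave -0.20 and, on a dimmer one, 0.32, against -0.25 on the chosen one, none called.

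**Figure D3:**
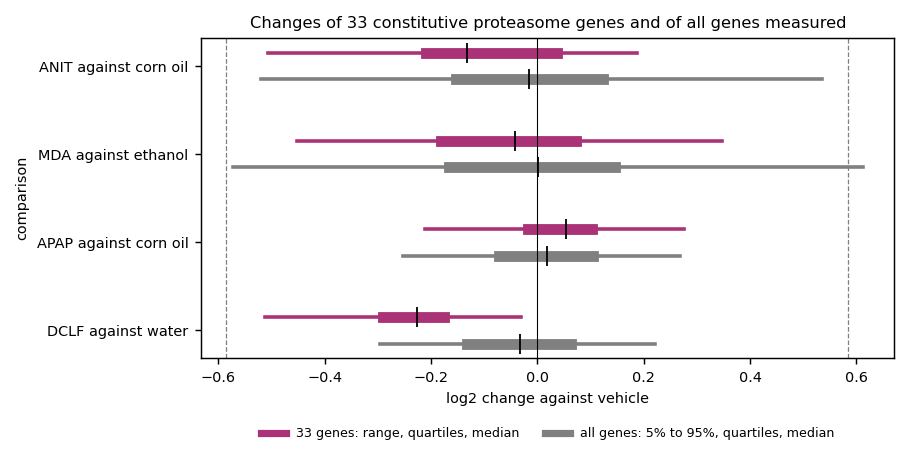
Log2 changes of the 33 constitutive proteasome genes (range, quartiles and median) above those of all 14217 genes (5% to 95%, quartiles and median) for each compound against its vehicle. With DCLF the whole range of the 33 genes, -0.51 to -0.03, lies below 0. With ANIT, MDA and APAP the range spans 0.

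Psmc6 had the lowest level relative to water. It read 11.50, 11.57 and 11.34 in DCLF livers, against 11.88 and 12.08 in water livers, a log2 difference of -0.51 ± 0.11 (SE, adjusted p = 0.28 by limma). Psma4 read 11.49, 11.65 and 11.56 in DCLF livers, against 11.94 and 11.99 in water livers, a difference of -0.40 ± 0.08 (SE, adjusted p = 0.29 by limma). The groups did not overlap for either gene. Of the other Psmc6 probe sets, an almost equally bright one gave -0.01 and a dimmer one -0.45, so the difference was not seen on all 3. Psmd1 read 10.82, 11.06 and 11.06 in DCLF livers, against 11.35 and 11.33 in water livers, a difference of -0.36 ± 0.10 (SE, adjusted p = 0.30 by limma). Psmc3 read 11.52, 11.75 and 11.60 in DCLF livers, against 11.89 and 12.01 in water livers, a difference of -0.33 ± 0.10 (SE, adjusted p = 0.31 by limma).

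Of the catalytic subunits, Psmb5 lay nearer to its vehicle level than Psmb7. Psmb5 read 12.29, 12.27 and 12.18 in DCLF livers, against 12.27 and 12.42 in water livers, a log2 difference of -0.10 with a 95% interval of -0.31 to 0.10, and the groups overlapped. Psmb7 read 11.87, 12.15 and 11.98 in DCLF livers, against 12.15 and 12.29 in water livers, a difference of -0.22 with an interval of -0.47 to 0.03. The size of the shift depended on scaling and on a single library. After quantile normalization the median over the 33 genes was -0.12 with 4 genes above 0, and with DCLF replicate 1 also left out it was -0.07. Against all 5 vehicle samples of the study, corn oil included, the median was -0.18 and again all 33 genes lay below 0.

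None of the differences between compounds passed for a constitutive subunit. For the ANIT effect minus the MDA effect 0 of 33 genes were called, where 1.67% of all genes were, and the interval stayed within 1.5-fold for 27 genes. Against APAP, 0 of 33 were called for ANIT, where 5.58% of all genes were, and 0 for MDA, where 7.01% were. The ANIT minus APAP count was 2 without ANIT replicate 1 (Psmd11 and Psmd3, both lower) and 1 without corn oil 2 ml/kg replicate 3 (Psmc6, lower). For APAP minus DCLF all 33 differences were above 0 with a median of 0.27, but 0 were called, where 0.134% of all genes were, and the lowest adjusted p was 0.14. After quantile normalization the median was 0.16 with 29 differences above 0, and without corn oil 2 ml/kg replicate 2 it was 0.18 with 31 above 0. At an unadjusted p under 0.05 the counts were 2 for ANIT minus MDA, 8 for ANIT minus APAP, 4 for MDA minus APAP and 10 for APAP minus DCLF, where 14.3%, 22.5%, 24.4% and 13.6% of all genes passed. Only 15 of the 33 intervals of APAP minus DCLF stayed within 1.5-fold. Across the 33 genes, which are not independent replicates, the ANIT and MDA changes had a Pearson r of 0.49 and a Spearman rho of 0.52, with 20 of the same sign. The ANIT and DCLF changes had an r of 0.43 and a rho of 0.37, with 24 of the same sign, and the MDA and DCLF changes an r of -0.01 and a rho of 0.05, with 19 of the same sign. These pairs of comparisons share no sample but use the same probe sets.

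Genes of the immunoproteasome, measured on the same arrays, were called higher with MDA and in part with ANIT. Psmb8, Psmb9 and Psmb10 encode the catalytic subunits that take the places of Psmb5, Psmb6 and Psmb7. They are given here beside the constitutive partners Psmb5 and Psmb7, while Psmb6 was not analysed. For ANIT 2 of the 3 were called (7.22% of all genes), for MDA 3 of 3 (9.13%), and for APAP and DCLF 0 of 3.

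**Figure D4:**
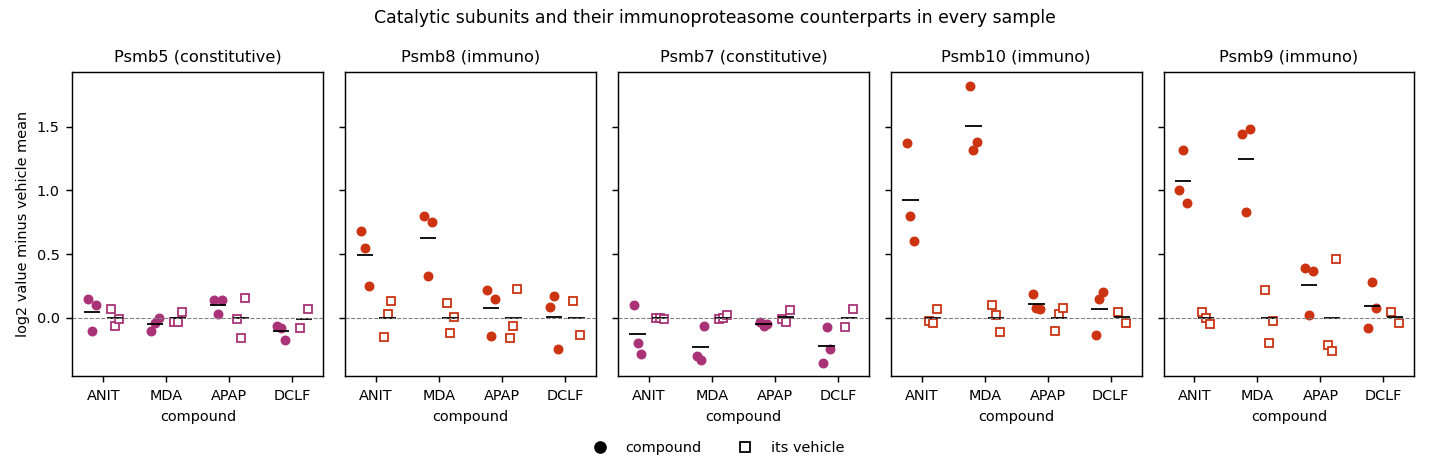
Log2 value minus the mean of the vehicle for catalytic subunits and their immunoproteasome counterparts in every sample. Filled circles are the compound, open squares its vehicle, and black lines the group means. Every ANIT and MDA sample of Psmb8, Psmb9 and Psmb10 lies above all samples of its vehicle. The mean of Psmb5 differs from the vehicle mean by 0.05 (ANIT) and -0.04 (MDA). That of Psmb7 differs by -0.12 (ANIT) and -0.23 (MDA), and neither gene was called.

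Psmb10 showed the largest rise of the 3 with MDA. It read 12.05, 11.55 and 11.61 in MDA livers, against 10.33, 10.25 and 10.12 in ethanol livers, a log2 change of 1.5 ± 0.14 (SE, adjusted p = 0.00064 by limma). In ANIT livers it read 11.60, 11.03 and 10.83, against 10.21, 10.19 and 10.30 in corn oil livers, a change of 0.92 ± 0.18 (SE, adjusted p = 0.019 by limma). With any of the 3 corn oil samples left out the ANIT change was 0.90 to 0.95 and missed the threshold, at adjusted p-values of 0.067 to 0.076. Its constitutive partner Psmb7 had changes of -0.23 with MDA and -0.12 with ANIT, and the difference between the partners was not tested.

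Psmb9 read 12.67, 12.06 and 12.71 in MDA livers, against 11.45, 11.03 and 11.21 in ethanol livers, a log2 change of 1.25 ± 0.19 (SE, adjusted p = 0.0043 by limma). In ANIT livers it read 11.66, 11.98 and 11.56, against 10.71, 10.66 and 10.61 in corn oil livers, a change of 1.07 ± 0.12 (SE, adjusted p = 0.0018 by limma). Both called changes remained past the threshold without any single library.

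Psmb8 read 12.70, 12.23 and 12.65 in MDA livers, against 12.02, 11.78 and 11.91 in ethanol livers, a log2 change of 0.63 ± 0.14 (SE, adjusted p = 0.021 by limma). The call was lost without MDA replicate 1 (0.54) or 3 (0.56), and without ethanol replicate 2 (0.57) or 3 (0.63). In ANIT livers Psmb8 read 12.18, 12.05 and 11.75, against 11.35, 11.53 and 11.63 in corn oil livers, a difference of 0.49 ± 0.13 (SE, adjusted p = 0.055 by limma), which passed at 0.61 without ANIT replicate 3. Its constitutive partner Psmb5 had differences of -0.04 with MDA and 0.05 with ANIT. The groups of all 3 immunoproteasome genes did not overlap with either compound. Of all genes, 14.1% lay higher without overlap with ANIT and 17.1% with MDA.

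With APAP the differences were 0.07 for Psmb8, 0.26 for Psmb9 and 0.11 for Psmb10, and with DCLF 0.01, 0.09 and 0.07, none called. The effect on Psmb10 was larger with MDA than with APAP, by 1.39 (adjusted p = 0.00067 by limma), and larger with ANIT than with APAP, by 0.81 (adjusted p = 0.047 by limma). For Psmb9 the differences were 0.98 for MDA minus APAP (adjusted p = 0.076 by limma) and 0.81 for ANIT minus APAP (adjusted p = 0.089 by limma), which did not pass. ANIT and MDA did not differ in a called way for any of the 3 genes.

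Markers of liver cell types also differed in these livers, where 9.13% of all genes were called with MDA and 7.22% with ANIT. With APAP and DCLF 0.324% and 0% of all genes were called. Of the 7 macrophage markers 6 were called higher with MDA and 3 with ANIT. Their summed level was 14.66 to 15.06 in MDA livers, against 13.53 to 13.83 in ethanol livers, and 14.32 to 14.66 in ANIT livers, against 14.02 to 14.17 in corn oil livers. Of the 9 lymphocyte markers 2 were called higher with MDA and 0 with ANIT, and their summed level was 12.51 to 12.71 in MDA livers, against 12.22 to 12.31 in ethanol livers, and 12.10 to 12.21 in ANIT livers, against 12.20 to 12.41 in corn oil livers. With APAP and DCLF 0 macrophage and 0 lymphocyte markers were called, although all 7 macrophage markers had a difference above 0 with each. The summed level of the 5 cholangiocyte markers was 11.97 to 12.38 in MDA livers, against 11.41 to 11.43 in ethanol livers, and 12.15 to 12.57 in ANIT livers, against 10.79 to 10.99 in corn oil livers, with 1 called higher in each comparison. Of the 6 stellate cell markers 3 were called higher and 2 lower with MDA, and 3 higher and 1 lower with ANIT. Their summed level was 13.36 to 13.46 in MDA livers, against 12.64 to 12.96 in ethanol livers, and 13.11 to 13.49 in ANIT livers, against 12.97 to 13.11 in corn oil livers. The 4 neutrophil markers had 0 called, with sums of 10.18 to 10.26 in MDA livers, against 9.95 to 10.10 in ethanol livers, and 10.20 to 10.47 in ANIT livers, against 9.95 to 10.13 in corn oil livers. Of the 2 erythroid markers 2 were called lower with ANIT, 2 with MDA, 1 with APAP and 0 with DCLF. Their median changes were -1.37, -0.99, -2.14 and -0.21 in that order. The part of these cells in the immunoproteasome result was not tested. Of the 9 hepatocyte markers 2 were called lower with MDA, where 8 lay below 0, and 0 with ANIT, where 7 lay below 0. The 5 proliferation genes had 4 called higher with ANIT and 2 with MDA, beside constitutive subunits of which none was called.

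The promoters of the catalytic genes are shown because the immunoproteasome genes were called with MDA and the constitutive partners Psmb5 and Psmb7 were not. Each is the RefSeq window of 250 bases before and 50 after the start of the gene in the assembly GRCr8, written 5′ to 3′ on the strand of the gene. Capitals mark GAAANNGAAA, the core of the interferon-stimulated response element, on either strand. The windows lie at chr15:32047330-32047629 (minus strand) for Psmb5, chr20:4656982-4657281 (minus) for Psmb8, chr3:42827421-42827720 (minus) for Psmb7, chr19:50743243-50743542 (minus) for Psmb10 and chr20:4668750-4669049 (plus) for Psmb9.
Psmb5: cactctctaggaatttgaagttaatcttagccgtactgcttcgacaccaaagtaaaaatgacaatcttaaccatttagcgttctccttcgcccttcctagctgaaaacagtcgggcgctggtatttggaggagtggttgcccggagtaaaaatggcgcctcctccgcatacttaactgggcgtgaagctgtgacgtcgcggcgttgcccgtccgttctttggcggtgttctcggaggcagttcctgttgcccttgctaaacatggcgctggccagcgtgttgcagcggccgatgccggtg
Psmb8: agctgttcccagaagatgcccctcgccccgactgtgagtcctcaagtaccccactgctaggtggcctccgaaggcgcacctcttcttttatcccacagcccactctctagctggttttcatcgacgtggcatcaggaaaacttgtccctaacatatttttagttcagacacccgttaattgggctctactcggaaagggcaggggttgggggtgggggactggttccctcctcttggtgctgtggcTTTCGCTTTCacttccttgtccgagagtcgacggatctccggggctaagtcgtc
Psmb7: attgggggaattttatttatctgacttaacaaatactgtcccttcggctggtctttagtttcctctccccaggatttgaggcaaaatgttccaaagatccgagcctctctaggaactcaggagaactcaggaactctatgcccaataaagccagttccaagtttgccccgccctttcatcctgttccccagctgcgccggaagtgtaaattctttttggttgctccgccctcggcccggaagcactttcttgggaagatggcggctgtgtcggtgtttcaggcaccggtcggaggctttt
Psmb10: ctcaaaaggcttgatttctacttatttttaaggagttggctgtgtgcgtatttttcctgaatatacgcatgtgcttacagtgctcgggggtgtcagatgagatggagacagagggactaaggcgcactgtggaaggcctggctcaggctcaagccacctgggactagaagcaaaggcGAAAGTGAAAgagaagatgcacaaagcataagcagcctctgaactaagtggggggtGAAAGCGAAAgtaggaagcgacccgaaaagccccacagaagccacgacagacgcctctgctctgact
Psmb9: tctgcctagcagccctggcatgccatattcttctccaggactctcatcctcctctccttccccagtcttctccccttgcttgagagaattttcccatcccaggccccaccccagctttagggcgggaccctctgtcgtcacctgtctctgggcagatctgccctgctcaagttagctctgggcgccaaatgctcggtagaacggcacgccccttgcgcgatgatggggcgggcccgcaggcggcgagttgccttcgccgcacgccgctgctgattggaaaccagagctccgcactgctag

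The core was found once in the Psmb8 window, on the strand opposite to the gene, in 2 places in the Psmb10 window, and not in the windows of Psmb5, Psmb7 and Psmb9. A window was available for 29 of the 33 constitutive genes, all but Psma7, Psmd6, Psmd12 and Psmd14. The interferon core was present in 3 of these 29 windows (Psma4, Psmb3 and Psmd7), against 3.77% of 27457 rat promoter windows of the same length. The core of the antioxidant response element, searched as TGACNNNGC, was present in 6 of the 29 (Psma3, Psmb2, Psmb5, Psmd1, Psmd3 and Psmd9), or 20.7%, against 12.2% of all windows. The CCAAT box, searched as CCAAT, was present in 16 of the 29, or 55.2%, against 37.7% of all windows, and the GC box, searched as GGGCGG, in 20, or 69.0%, against 34.9%. Both strands were searched, matches of different motifs could overlap and were counted apart, and a match is a run of letters and not a measured binding site.

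Among the genes that serve the proteasome, few passed the test. Of the activator genes, Psme1 and Psme2 encode the interferon-inducible cap of the core. Psme1 read 13.13, 13.14 and 13.19 in MDA livers, against 12.77, 12.70 and 12.64 in ethanol livers, a log2 change of 0.45 ± 0.08 (SE, adjusted p = 0.0096 by limma). Psme2 read 12.39, 12.26 and 12.26 in MDA livers, against 11.91, 11.89 and 11.89 in ethanol livers, a change of 0.41 ± 0.08 (SE, adjusted p = 0.015 by limma). Both rises stayed under 1.5-fold and were therefore not called. With ANIT the differences were 0.24 and 0.20, and their adjusted p-values of 0.14 and 0.27 did not pass.

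Of 8 proteasome-associated genes 1 was called with MDA, where 9.13% of all genes were called. This was Uchl5, a deubiquitinase that binds the regulatory particle. It read 10.52, 10.41 and 10.76 in MDA livers, against 10.92, 11.18 and 11.39 in ethanol livers, a log2 change of -0.60 ± 0.14 (SE, adjusted p = 0.028 by limma). Of 5 ubiquitin and shuttle genes 1 was called with ANIT, where 7.22% of all genes were called. This was Ubqln1, which carries ubiquitinated proteins to the proteasome. It read 11.98, 11.86 and 11.66 in ANIT livers, against 12.46, 12.39 and 12.43 in corn oil livers, a change of -0.59 ± 0.10 (SE, adjusted p = 0.0092 by limma). Each of these 2 genes had groups that did not overlap, where 18.4% of all genes lay lower without overlap with MDA and 18.8% with ANIT. In the other comparisons 0 genes of these lists were called, and 0 of 5 core assembly chaperones and 0 of 7 genes of NRF1 and its processing were called with any compound.

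The core assembly chaperone Psmg1 lay lower with both bile duct toxicants at a fold change under 1.5. It read 11.54, 11.34 and 11.34 in ANIT livers, against 11.84, 11.88 and 11.74 in corn oil livers, and 11.29, 11.28 and 11.53 in MDA livers, against 11.72, 11.95 and 11.75 in ethanol livers. The log2 changes were -0.42 (adjusted p = 0.025 by limma) and -0.44 (adjusted p = 0.030 by limma). The transcription factor gene Nfe2l1 had log2 differences of 0.06 with ANIT and 0.16 with MDA (adjusted p = 0.87 and 0.39 by limma). Of the genes of NRF1 processing, Ddi2 also lay lower at a fold change under 1.5. Its log2 change was -0.44 with MDA (adjusted p = 0.028 by limma) and -0.40 with ANIT (adjusted p = 0.079 by limma). With no minimum on the fold change, 16.8% of all genes passed with MDA.

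The 11 further probe sets of the constitutive genes, which belong to 7 of them, gave the same sign as the chosen probe set in 8 cases with ANIT, 5 with MDA, 6 with APAP and 9 with DCLF. None of the 11 was called. Within groups, the median SD over the 33 genes was 0.176 in ANIT livers, against 0.062 in their corn oil livers, and 0.121 in MDA livers, against 0.075 in ethanol livers. It was 0.092 in APAP livers, against 0.165 in their corn oil livers, and 0.14 in DCLF livers, against 0.089 in water livers. The median SE of a change over the 33 genes was 0.10 to 0.11 log2 units for each compound against its vehicle, and 0.15 to 0.16 for the differences between compounds.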

How the data were processed

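Liver RNA of 23 rats was hybridised to the Affymetrix rat genome array. The authors deposited log2 values after robust multichip averaging (RMA) in Array Studio. The file held 31099 probe sets with 57 controls, and values from 4.65 to 15.99. Of 31042 probe sets, 20826 named 1 gene, 436 several and 9780 none in the platform annotation; 20758 were found by gene ID in the RefSeq table (GRCr8) and 68 were not. Each compound was compared with its own vehicle in limma 3.58.1 (R 4.3.3), two-sided, with only the groups concerned in the fit. Exact tests of 3 against 3 or 3 against 2 cannot go below p = 0.1 or 0.2 and were not used. The methods' t-test, two-sided, was run with equal variances, a choice made here, at p under 0.01 and fold change over 1.5. The code was tested on simulated data. Values in every sample are given for the 4 genes with the lowest adjusted p per comparison, Psmb5, Psmb7 and the immunoproteasome genes, and for called related genes; Psme1, Psme2 and Psmg1 were added after their values were seen. The changes of Ddi2 were also added after they were seen. The members, lists and rules were chosen with earlier results of these data known. Summed marker levels are log2 of summed linear values. Precision is limited by the number of arrays. Alternatives were other scalings, leaving out the dimmest 25% of probe sets, 1 fit over all groups, the mean of a gene's probe sets and leaving out each sample. Carbon tetrachloride samples and sequencing data were not used here.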

Additional observations from a re-analysis of the deposited data

How the results depend on the processing

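No paired analysis was possible because the compound and vehicle animals were different rats and replicate numbers only follow the sample order. The count of constitutive genes called was 0 in each comparison as reported. With no minimum fold change it was 2 for ANIT and 1 for MDA. Leaving out 1 sample at a time gave 0 to 3 calls for ANIT and 0 to 2 for ANIT minus APAP, and 0 in all other comparisons. The other alternatives gave 0. The median change was -0.13 for ANIT (-0.23 to -0.05 with 1 sample left out), -0.04 for MDA (-0.08 to -0.01), 0.05 for APAP (-0.04 to 0.12) and -0.23 for DCLF (-0.29 to -0.15). Quantile normalization moved it to -0.0854 for ANIT, 0.0963 for MDA and -0.116 for DCLF, and to -0.0693 for DCLF with DCLF replicate 1 also left out, an alternative chosen after seeing the data, as was the use of all 5 vehicle samples, with which it was 0.0205 for APAP and -0.18 for DCLF. Fewer samples in a fit leave less to estimate the spread; the cause of the other shifts was not tested.

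Changes of sign were seen only for small differences that were not called. Psmb5 with MDA was 0.0145 over the mean of its probe sets and 0.123 after quantile normalization, and Psmb5 with DCLF was 0.0255 after quantile normalization. Psmb8 with APAP was -0.00943 without corn oil replicate 1, and up to 0.188 with another sample left out. With DCLF, Psmb8 was -0.0362 without DCLF replicate 1, -0.0737 without DCLF replicate 2 and -0.126 without water replicate 2 (up to 0.14 with another left out), Psmb9 was -0.00285 without DCLF replicate 2 (up to 0.181), and Psmb10 was -0.0444 against all 5 vehicle samples. Of the remaining values of single genes under an alternative, 394 kept direction and side of the threshold, 4 passed it and 7 no longer did. Over all genes, calls changed by over 1.5 times with the methods' t-test, with 91 genes higher and 67 lower for ANIT after adjustment, against 546 and 480 by limma, and 148 higher and 91 lower for MDA, against 697 and 601. For APAP, where limma called 34 and 12, the t-test called 50 higher and 26 lower unadjusted and 1 and 0 after adjustment, 1 fit over all groups 51 and 27, all 5 vehicle samples 63 and 31, and leaving out corn oil 2 ml/kg replicate 2 gave 18 and 2.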
